A study of Sus scrofa with 6 samples.

Results

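Osteopontin, encoded by SPP1, and the integrin subunits that bind it were followed in the endometrium, the inner lining of the uterus, of Erhualian sows, a Chinese pig breed known for large litters. The members were listed by symbol. They are the ligand SPP1 and 9 integrin subunits, namely ITGAV, ITGB1, ITGB3, ITGB5, ITGB6, ITGB8, ITGA4, ITGA5 and ITGA8. All 10 were found, each as 1 row, among the 14262 genes of the deposited expression table, so none is absent. The study compared 3 high prolific with 3 low prolific sows, all at day 12 of gestation, with 1 library of total endometrial RNA per sow and no treatment named in the labels. Parity, the number of litters a sow has borne, was 5, 8 and 8 in the high prolific sows high 1, high 2 and high 3, and 7, 7 and 5 in the low prolific sows low 1, low 2 and low 3. The age and litter sizes of each sow were not given in the sources used here.

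Osteopontin is a secreted, phosphorylated and calcium-binding glycoprotein of the extracellular matrix. It carries the short peptide arginine-glycine-aspartate (RGD), which integrins recognise, and it is also a ligand of the surface receptor CD44. Integrins are cell surface receptors made of 1 alpha and 1 beta subunit that tie the matrix to the actin cytoskeleton. In the pig uterus osteopontin is known as a product of the luminal epithelium around the time when the conceptus elongates and begins to attach, its expression there is induced by conceptus estrogen, and integrins on the uterine and conceptus epithelia are held to bind it as a bridge between them. Day 12 falls in this window.

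Each value is a normalized read count, on the scale the authors deposited. These values are not divided by transcript length, so levels are compared between sows within a gene and never between genes. The columns summed to between 22663087 and 24270245 per library, a near-equality that may come from the normalization. As the values are normalized, the read depth behind a value is unknown. On the first principal component of log2 values (43.6% of the variance) low 2 and low 3 (0.53 and 0.54) stood apart from the other 4 sows (-0.50 to -0.019). Where leaving out that pair moved a difference of a member, or one at an unadjusted p under 0.05, by a large part of its size, the value without them is given as well. All 12 listed stromal markers and 11 of 12 epithelial markers were in the table, and none of these was at 0 in any sow. The smallest mean of any gene in the table was 17.61, so values above 0 are no test of the tissue label. In a whole-tissue sample, fewer cells of a type and less RNA per cell cannot be told apart.

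SPP1 separated the groups more widely than any integrin subunit did. It was at 394 in high 1, 229 in high 2 and 332 in high 3, against 776 in low 1, 891 in low 2 and 1453 in low 3. All 3 high prolific sows lay below all 3 low prolific sows, and the lowest low prolific value was 1.97 times the highest high prolific value. The group means were 318 ± 83.3 and 1040 ± 363 (SD, n = 3 each). The log2 fold change, high minus low on the log2(value + 1) scale, was -1.69 ± 0.30 (SE), or 3.22-fold lower in high prolific sows with a 95% confidence interval of 1.95 to 5.31-fold. SPP1 had the 22nd smallest unadjusted p of the table (0.0011 with limma), but it did not pass over all genes (Benjamini-Hochberg adjusted p = 0.619 with limma). No other gene passed either: 0 of 14262, or 0%, were called at an adjusted p under 0.05, where 1129, or 7.92%, had an unadjusted p under 0.05. An exact two-sided permutation test of the single gene gave p = 0.1, the smallest that 3 against 3 sows allow. Groups that did not overlap, with the high prolific sows lower, were seen in 6.32% of all genes.

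SPP1 lay lower in high prolific sows both at parity 5 and at the higher parities, as it must when the groups do not overlap. Between the sows of parity 5 the value was 394 in high 1 and 1453 in low 3, 3.68 times higher in the low prolific sow. Among the sows of parity 7 or 8 the high prolific values ran from 229 to 332 and the low prolific values from 776 to 891, a 3.01-fold difference of geometric means. With parity as a covariate the log2 fold change was -1.52 ± 0.21 (SE; adjusted p = 0.608 with limma). It was -1.32 with low 2 and low 3 left out, and between -1.87 and -1.42 with any single sow left out.

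**Figure D1:**
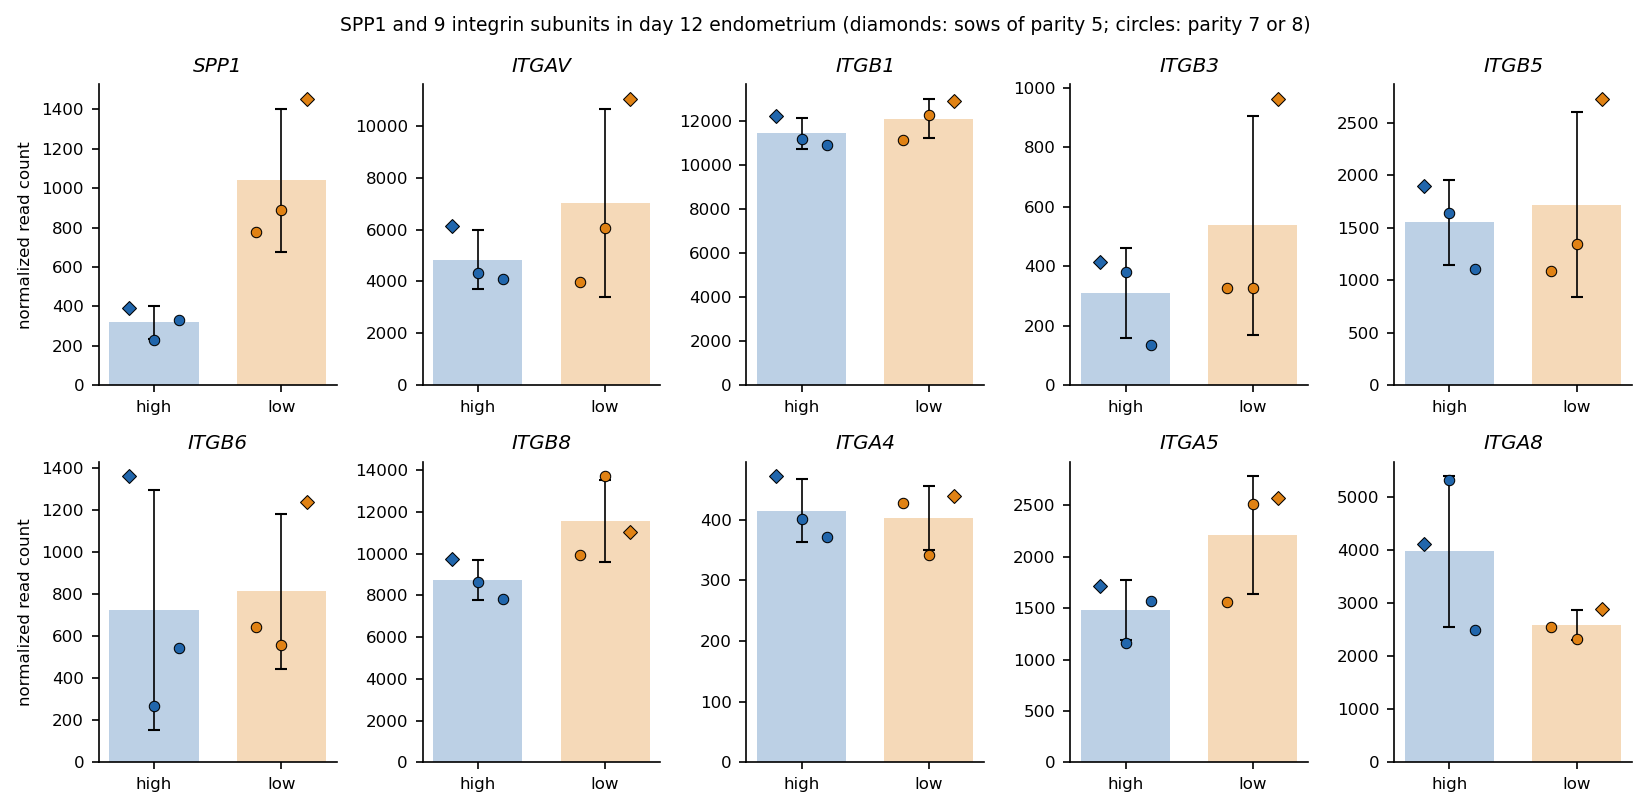
Normalized read counts (linear axes from 0) of SPP1 and 9 integrin subunits by sow, high prolific in blue and low prolific in orange. Each bar is the mean of 3 sows with its SD, each point is 1 sow, with diamonds for parity 5 and circles for parity 7 or 8. The groups are apart in SPP1 (318 against 1040 on average) and, barely, in ITGB8 (highest high prolific sow 9764, lowest low prolific sow 9922).

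The alpha v subunit ITGAV pairs with each of the beta subunits listed here, and most RGD-binding receptors of osteopontin contain it. It was at 6133, 4324 and 4077 in high 1 to high 3 and at 3984, 6064 and 11041 in low 1 to low 3. The groups overlapped, since low 1 was the lowest of all 6 sows and low 3 the highest. Group means were 4845 ± 1123 (high) and 7029 ± 3626 (low; SD, n = 3), and the log2 fold change of -0.43 ± 0.38 (SE) did not pass (adjusted p = 0.763 with limma). That value moved with single sows: it was -0.04 without low 3 and -0.78 without low 1, and it turned to 0.26 with low 2 and low 3 left out.

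ITGB3 forms with ITGAV the vitronectin receptor, the best known osteopontin receptor of osteoclasts and endothelium. It was at 415, 380 and 137 in high 1 to high 3, against 325, 326 and 963 in low 1 to low 3. Low 3 was again the highest, high 3 the lowest, and low 1 and low 2 lay within the high prolific range. The log2 fold change was -0.74 ± 0.59 (SE), with a 95% confidence interval from -2.16 to 0.67 that leaves a difference in either direction possible (adjusted p = 0.736 with limma). Without low 3 the value was -0.22, with low 2 left out as well it was also -0.22, and without high 3 it was -0.23.

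ITGB5, the beta subunit of a vitronectin receptor found in epithelium and stroma, showed the same 2 sows on top. Its values were 1898, 1645 and 1112 in high 1 to high 3 and 1089, 1343 and 2731 in low 1 to low 3. The means of 1551 ± 401 and 1721 ± 884 (SD, n = 3) overlapped broadly, with a log2 fold change of -0.07 ± 0.38 (SE). The direction of so small a difference was not stable: it was 0.32 without low 3, 0.16 without high 3 and 0.13 with parity as a covariate.

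ITGB6 is a beta subunit of epithelia whose only known partner is ITGAV. It was at 1360 in high 1, 267 in high 2 and 542 in high 3, and at 645 in low 1, 559 in low 2 and 1236 in low 3. High 1 and low 3, 1 sow of each group, stood at 1236 or more, and the other 4 sows at 645 or less. The group means of 723 ± 569 and 813 ± 369 (SD, n = 3) therefore hid a spread of 5.10-fold between the highest and lowest sow. Between the groups the log2 fold change was -0.39 ± 0.61 (SE; adjusted p = 0.876 with limma). It was -1.004 without high 1, 0.17 without high 2, -0.04 without low 3 and -0.15 with low 2 and low 3 left out.

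ITGB8, the beta subunit of the receptor that activates latent transforming growth factor beta, was the only integrin subunit whose groups did not overlap. It was at 9764, 8617 and 7816 in high 1 to high 3 and at 9922, 13711 and 11054 in low 1 to low 3. The gap between high 1 and low 1 was narrow, a ratio of 1.02. The means were 8732 ± 979 and 11562 ± 1945 (SD, n = 3), 1.32-fold lower in high prolific sows (95% confidence interval 1.01 to 1.72-fold). Its unadjusted p was 0.045, and it did not pass over all genes (adjusted p = 0.630 with limma). In all, 2 of the 10 members, SPP1 and ITGB8, were lower at an unadjusted p under 0.05, as were 4.09% of all genes. For ITGB8 the log2 fold change of -0.40 ± 0.16 (SE) became -0.27 when low 2 was left out and -0.19 when low 3 was left out as well.

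ITGB1 is the common beta subunit of the fibronectin, collagen and laminin receptors and the partner of ITGA4, ITGA5 and ITGA8. It was the steadiest member, at 12206, 11169 and 10903 in high 1 to high 3 and 11124, 12281 and 12894 in low 1 to low 3. Its highest sow was only 1.18 times its lowest, and 7.67% of all genes had a smaller range on the log2 scale. The log2 fold change of -0.08 ± 0.11 (SE) had a 95% confidence interval from -0.36 to 0.19. By contrast, the ranges of ITGB3, SPP1 and ITGB6 over the 6 sows were 2.81, 2.66 and 2.34 log2 units, wider than in 96.7%, 96.2% and 94.9% of all genes.

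ITGA5 makes with ITGB1 the classical fibronectin receptor, which also binds the RGD site of osteopontin. It was at 1719, 1159 and 1572 in high 1 to high 3 and at 1555, 2511 and 2573 in low 1 to low 3. Low 2 and low 3 lay above all other sows, while low 1 fell inside the high prolific range. The means were 1483 ± 290 and 2213 ± 571 (SD, n = 3), with a log2 fold change of -0.56 ± 0.25 (SE) that did not pass (unadjusted p = 0.0599, adjusted p = 0.633 with limma). That value rests on low 2 and low 3: it was -0.09 without them both.

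ITGA8, found on smooth muscle and stromal cells, was one of 2 members with a higher mean in high prolific sows. It was at 4111, 5320 and 2496 in high 1 to high 3, against 2543, 2329 and 2896 in low 1 to low 3. High 1 and high 2 were the highest of the 6, and high 3 lay within the low prolific range. Its log2 fold change was 0.56 ± 0.28 (SE; adjusted p = 0.654 with limma), 0.31 without high 2 and 0.86 without high 3. ITGA4, a leukocyte subunit that can bind a site in osteopontin next to the RGD peptide, spanned 372 to 472 in the high and 342 to 439 in the low prolific group. Its log2 fold change of 0.05 ± 0.16 (SE) had a 95% confidence interval from -0.34 to 0.43 and turned to -0.07 without low 2, to -0.05 both without high 1 and with low 2 and low 3 left out.

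**Figure D2:**
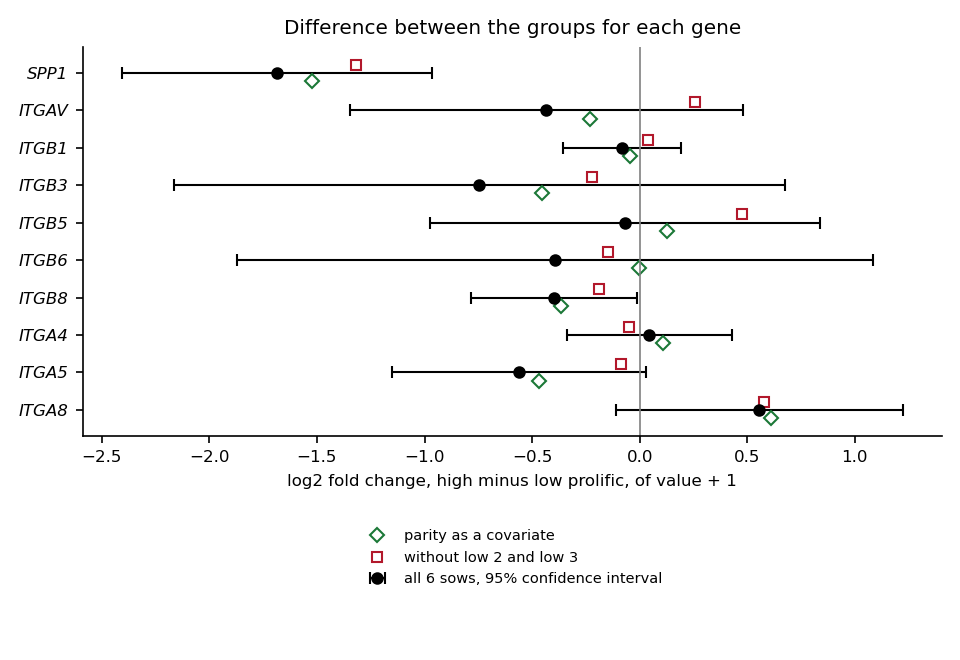
Log2 fold change, high minus low prolific, on the log2(value + 1) scale for each member, with the 95% confidence interval from limma over all 6 sows (black), with parity as a covariate (green diamonds) and without low 2 and low 3 (red squares). SPP1 (-1.69) stays left of 0 in all 3 fits, while ITGAV goes from -0.43 to 0.26 without low 2 and low 3. As the groups of SPP1 do not overlap, leaving out sows could not turn its direction.

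Taking the 9 integrin subunits as a list, 7 lay lower and 2 higher in high prolific sows, with a median log2 fold change of -0.39, beside 50.4% of all genes lower and a median of -0.0024. None passed over all genes. That median depended on single sows: it was -0.13 without high 2, -0.23 without high 3, -0.04 without low 3 and -0.05 with low 2 and low 3 left out. It was also -0.04 with parity as a covariate.

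The members shared a pattern by parity, noticed after their values were seen. In 8 of the 10, all but ITGB8 and ITGA8, the sow of parity 5 was the highest of its group in both groups, as in 17.7% of all genes. In 5 of them, ITGAV, ITGB3, ITGB5, ITGB6 and ITGA4, high 1 and low 3 were the highest pair of all 6 sows, as in 11.1% of all genes. In a fit with group and parity together, the slope on parity was below 0 in 10 of 10 members, beside 49.8% of all genes. It was also below 0 in 12 of 12 stromal, 7 of 7 endothelial and 8 of 9 smooth muscle markers, with 4, 5 and 1 of them at an unadjusted p under 0.05, and in 10 of 14 other integrin subunits. Among epithelial markers the slope was below 0 in 5 of 11, and 0 of the 11 were highest in the sow of parity 5 in both groups. For the other lists the slope was below 0 in 7 of 9 macrophage, 4 of 4 neutrophil and 4 of 9 lymphocyte markers. Conceptus markers had 3 of 6 below 0, and red blood cell markers 2 of 2. The part of these markers in the slopes of the members was not tested. The slope was steepest for ITGB6, at -0.58 ± 0.11 log2 units per litter (SE; unadjusted p = 0.0028, adjusted p = 0.370 with limma), and its group difference in that fit was -0.0027 ± 0.29 (SE). ITGAV (-0.31 ± 0.11), ITGB5 (-0.29 ± 0.11) and SPP1 (-0.24 ± 0.084) also had slopes at an unadjusted p under 0.05 (0.0317, 0.0417 and 0.0307 with limma). A slope at that level was seen in 4 of the 10 members and in 9.42% of all genes (falling in 6.48%), and 0 of 14262 slopes, or 0%, passed after adjustment. The slopes rest on 2 sows of parity 5. Without low 3 those of SPP1, ITGAV and ITGB5 were -0.17, -0.18 and -0.16 with unadjusted p of 0.14, 0.124 and 0.168, while that of ITGB6 was -0.61 (unadjusted p = 0.0143). Without high 1 they were -0.40, -0.58, -0.59 and, for ITGB6, -0.52, whose unadjusted p was then 0.083. No low prolific sow had a parity of 8, and anything else that high 1 and low 3 had in common cannot be told apart from their parity.

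**Figure D3:**
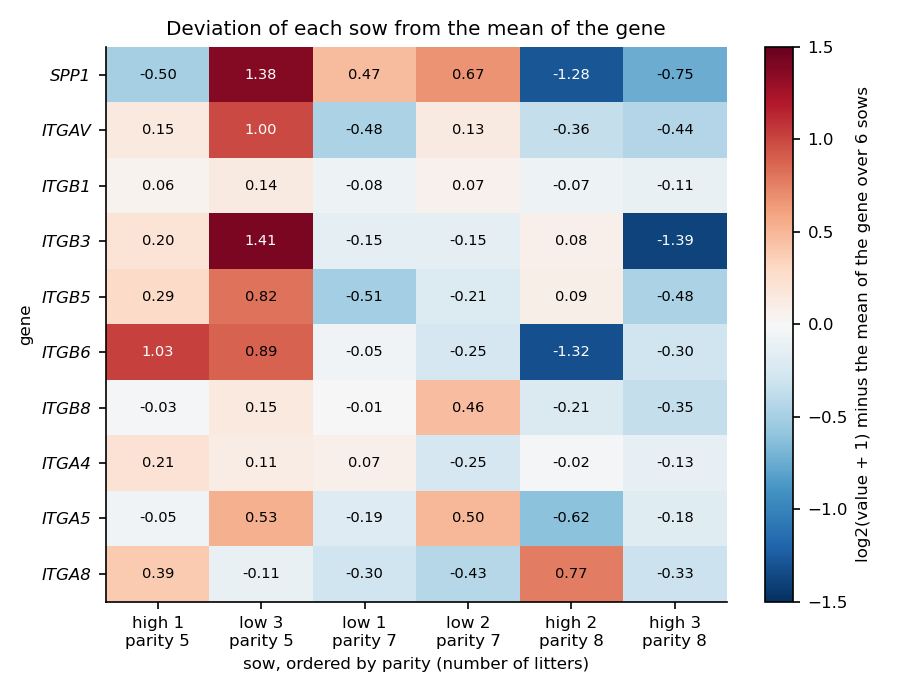
Deviation of log2(value + 1) in each sow from the mean of the gene over 6 sows, with sows ordered by parity. Both sows of parity 5 are above the mean in ITGB6 (1.03 and 0.89), and low 3 has the highest value of 6 of the 10 members, among them SPP1 (1.38) and ITGB3 (1.41).

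Markers of other cell types moved with some of these values. The 7 measured of 10 listed endothelial markers were each highest in the sow of parity 5 within both groups. Their summed level ran from 10310.8 to 15302 in the high prolific sows, highest in high 1. In the low prolific sows it ran from 13111.6 to 24009.7, highest in low 3. These were the same sows as in 8 of the 10 members, SPP1 among them. All 7 lay lower in high prolific sows (50.4% of all genes), with a median log2 fold change of -0.46, while the ranges of the sum overlapped. Such sums are not corrected for transcript length, so they follow the genes with the largest counts. The 12 stromal markers summed to 521862.5 to 710243.8 (high) and 611031.3 to 827250.9 (low). Most of that sum came from the collagen genes COL1A1, COL1A2 and COL3A1 (196786, 125879 and 279313 in high 1). The 9 measured of 10 listed smooth muscle and pericyte markers summed to 30177.1 to 35862.5 (high) and 36966 to 38134.6 (low), ranges that did not overlap. Of these 9 genes 5 were lower in every high than in every low prolific sow, beside 6.32% of all genes. MYH11, a large part of the sum (21899 in high 2), had a log2 fold change in the other direction (0.33). The sum of the 4 measured of 10 listed neutrophil markers was at 276.2 to 9138.9 (high) against 11665.7 to 23295.1 (low), but the groups overlapped in each of the 4 genes. That sum was mostly MMP8 in low 1 (11244) and mostly S100A8 in low 3 (10857), and CSF3R had a log2 fold change in the other direction (0.66). For SPP1, which both epithelium and macrophages can make, the 11 epithelial markers summed to 72538.7 to 75879 (high) and 61654.3 to 85664.5 (low). The 9 measured of 11 listed macrophage markers summed to 7024.9 to 9682.1 (high) and 7501.5 to 10966.7 (low). Epithelial and macrophage sums thus overlapped between the groups where SPP1 did not. The epithelial markers went both ways, 6 lower and 5 higher in high prolific sows, with a median log2 fold change of -0.028. Of the 11, 3 were lower in every high than in every low prolific sow (6.32% of all genes), CDH16 (-1.30) among them. Among those with a higher log2 mean were KRT7 (0.85) and KRT8 (0.54), whose groups overlapped. Listed conceptus markers (6 of 14 measured) summed to 9590.2 to 11121 (high) and 6289.6 to 10812.7 (low), and several of them are also genes of the endometrium. No measured marker of these lists was at 0 in any sow, and their part in the results was not tested.

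Among other receptors of osteopontin, CD44, a receptor for hyaluronan as well as osteopontin, was at 2729, 1974 and 2306 in high 1 to high 3 and at 1484, 1361 and 2153 in low 1 to low 3. Only low 3 reached into the high prolific range, and the log2 fold change was 0.50 ± 0.21 (SE; unadjusted p = 0.05004, adjusted p = 0.631 with limma). ITGA9, which binds the same osteopontin site as ITGA4, spanned 586 to 754 in the high and 552 to 831 in the low prolific group, without a direction that held across scalings (log2 fold change -0.03, and 0.012 with columns of equal sum). Of the 14 measured of 17 other integrin subunits, 7 lay higher and 7 lower (median 0.029). At an unadjusted p under 0.05 were 3 of them, all lower in high prolific sows, beside 4.09% of all genes. These were the laminin-binding ITGA7 (531 ± 107 against 782 ± 135, SD, n = 3) and ITGA3 (2598 ± 535 against 3837 ± 831) and the collagen-binding ITGA1 (1034 ± 93.1 against 1710 ± 615). The adjusted p of these 3 lay between 0.619 and 0.630 with limma, and their groups overlapped. Leaving out low 2 and low 3, ITGA1 went from a log2 fold change of -0.66 to -0.09 and ITGA7 from -0.56 to -0.26. ITGA3 went from -0.56 to -0.79. Of the 14, only ITGAE had groups apart, at 257 to 295 in the high and 214 to 242 in the low prolific group. Groups apart in this direction were seen in 7.18% of all genes, and ITGAE did not pass (adjusted p = 0.663 with limma).

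Other ligands of the same integrins lay lower in high prolific sows in 22 of 29 measured members of 32, with a median log2 fold change of -0.27, which was -0.01 with low 2 and low 3 left out. Of them 6 were lower at an unadjusted p under 0.05 (4.09% of all genes) and 1 was higher (3.83%), and 0 passed over all genes. The fibronectin gene FN1, which encodes the main ligand of the receptor of ITGA5 and ITGB1, was at 10691 ± 1796 against 11944 ± 2654 (SD, n = 3). Vitronectin, VTN, spanned 20.8 to 31 in the high and 21 to 35 in the low prolific group. The latent growth factors TGFB1 and TGFB3, which ITGB6 and ITGB8 receptors bind through an RGD site, were at 723 ± 51.2 against 946 ± 254 and at 392 ± 210 against 556 ± 211, with overlapping groups. LTBP1, which holds these growth factors in the matrix, was at 1872 ± 86 against 2383 ± 363.

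The furthest apart of these ligands was FGG, the fibrinogen gamma chain. It was at 14.6, 12.2 and 21.5 in high 1 to high 3, against 55.7, 721 and 1800 in low 1 to low 3. High prolific sows were all below, but the low prolific sows spanned a wide range. A log2 fold change of -4.65 ± 1.21 (SE; adjusted p = 0.619 with limma) shrank to -1.77 with low 2 and low 3 left out. The beta chain FGB, at 73.9 to 165 in the high and 85.5 to 133 in the low prolific group, overlapped between them. PECAM1, an endothelial adhesion molecule, was at 2740 ± 428 against 5133 ± 1102 (SD, n = 3), 1.86-fold lower in high prolific sows and without overlap. CCN3, a matricellular ligand, was at 324 ± 117 against 814 ± 344, with high 1 (455) above low 1 (428), and its log2 fold change of -1.28 was -0.46 with low 2 and low 3 left out. ADAM15 and EMILIN1 had log2 fold changes of -0.27 and -0.40 with groups apart. Leaving out low 2 and low 3 gave -0.096 for EMILIN1 and -0.070 for LTBP1, which had been at -0.34.

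NPNT, nephronectin, the principal ligand of the ITGA8 receptor, was the ligand that lay higher. This gene was singled out after its values were seen. It was at 4085, 4426 and 3476 in high 1 to high 3 and at 3280, 1284 and 1122 in low 1 to low 3. The groups did not overlap, with the gap between high 3 and low 1, as with 7.18% of all genes in this direction. Its log2 fold change was 1.24 ± 0.40 (SE; unadjusted p = 0.0197, adjusted p = 0.619 with limma), and 0.28 with low 2 and low 3 left out.

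Genes that process osteopontin lay on both sides, with 6 of 11 measured members of 17 higher in high prolific sows, a median log2 fold change of 0.080 and 0 at an unadjusted p under 0.05. FAM20C, the kinase that phosphorylates osteopontin in the secretory pathway, was at 2011, 2153 and 1968 in high 1 to high 3, above the 1849, 1760 and 1460 of low 1 to low 3. Its log2 fold change was 0.28 ± 0.12 (SE; adjusted p = 0.633 with limma), and 0.14 with low 2 and low 3 left out. ACP5 is the phosphatase known in the pig uterus as uteroferrin, an iron-carrying secretion of the glands, and it can remove phosphate from osteopontin. It was at 18977, 8983 and 5860 in high 1 to high 3 and 7566, 17022 and 35807 in low 1 to low 3. Its highest sows were low 3 and high 1, the sows of parity 5, and the groups overlapped (log2 fold change -0.74 ± 0.65, SE, and 0.40 with low 2 and low 3 left out). TGM2, a transglutaminase that crosslinks osteopontin, was at 39396 ± 5801 against 34053 ± 2681 (SD, n = 3). CPN1, PLAU and MMP9 had log2 fold changes of 0.59, 0.23 and 0.26, none of them at an unadjusted p under 0.05. Each moved with single sows: without high 2 CPN1 was at 0.22 and MMP9 at 0.018, and without high 3 PLAU was at -0.029.

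Inside the cell, genes of the integrin adhesion machinery lay lower in 37 of 50 measured members of 53 (50.4% of all genes lay lower), with a median log2 fold change of -0.16. At an unadjusted p under 0.05 were 4 of them, or 8%, all lower, beside 7.92% of all genes in either direction and 4.09% lower, and 0 passed over all genes. FLNA, filamin A, which crosslinks actin and binds integrin tails, was at 11226, 8949 and 10876 in high 1 to high 3 and at 14032, 15320 and 14945 in low 1 to low 3. The groups were well apart, and the log2 fold change of -0.52 ± 0.13 (SE; adjusted p = 0.619 with limma) stayed between -0.58 and -0.42 with any single sow left out. RAC1, a small GTPase of cell spreading, was at 9564 ± 911 against 12808 ± 1950 (SD, n = 3), KANK2, a talin-binding adaptor, at 2693 ± 282 against 4032 ± 985, and CAV1, caveolin 1, at 4362 ± 883 against 5705 ± 364. The log2 fold change of KANK2 went from -0.56 to -0.17 when low 2 and low 3 were left out. Talin 1, TLN1, which activates integrins, was 1.16-fold lower without overlap (7954 ± 411 against 9272 ± 665), and the focal adhesion kinase PTK2 was at 3681 ± 454 against 4559 ± 1784, where low 2 alone reached 6617. PTK2 turned from a log2 fold change of -0.25 to 0.05 without low 2.

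**Figure D4:**
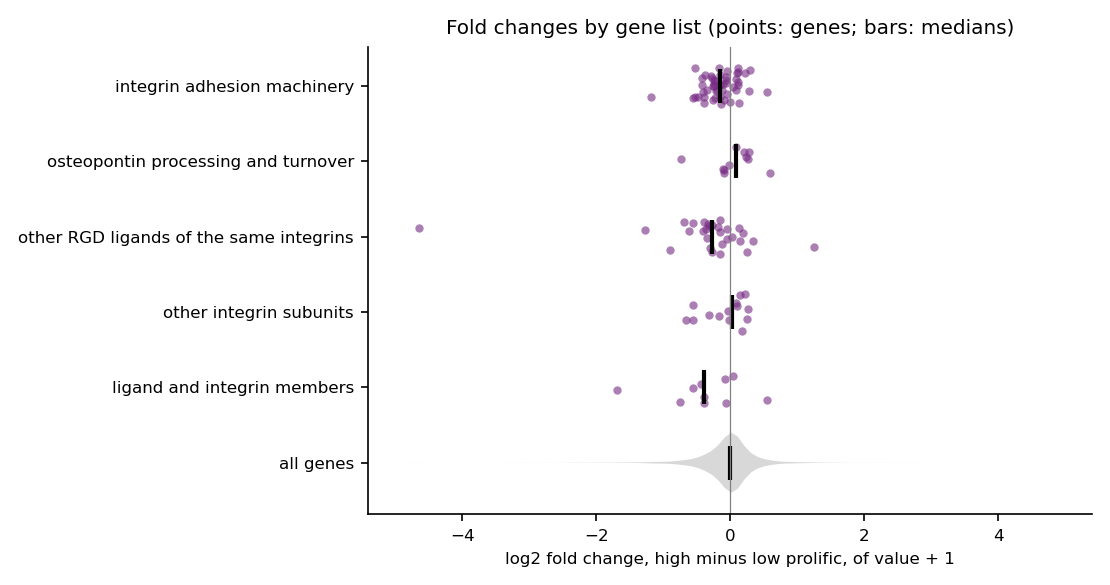
Log2 fold changes, high minus low prolific, of every measured gene of 5 lists (points, spread vertically only for legibility) with list medians (black bars), above the distribution of all 14262 genes (grey). The medians are -0.39 for the members, -0.27 for other ligands, -0.16 for the adhesion machinery, 0.029 for other integrin subunits and 0.080 for processing genes, and the point near -4.65 is FGG.

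The measured genes next to SPP1 overlapped between the groups. In the order of protein-coding genes of the RefSeq annotation of Sscrofa11.1, which may not be the build of the authors, PKD2 lies directly on one side of SPP1. PKD2, a calcium-permeable channel, spanned 1646 to 2337 in the high and 1677 to 2650 in the low prolific group (log2 fold change -0.04 ± 0.21, SE). MEPE and IBSP, the next genes on the other side, had no row under those symbols in the deposited table. DMP1, the third, was at 189 ± 53 against 203 ± 26.8 (SD, n = 3). SPARCL1, a matrix protein further out, was at 9057 ± 1739 against 10522 ± 4358, and HSD17B11, a steroid dehydrogenase, at 827 ± 263 against 1280 ± 450. The estrogen receptor ESR1, at 8014 ± 1437 against 6747 ± 2602, overlapped between the groups too, at a log2 fold change of 0.30, and of -0.30 with low 2 and low 3 left out.

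The genes whose pattern over the 6 sows was closest to that of SPP1, by the root mean square distance of log2 values centred on each gene, were CDH16, SOD2, BCAS1, SLPI, INHBB and CLDN1. Their distances lay between 0.28 and 0.33 log2 units. CDH16, a cadherin of epithelia, was the closest, at 590, 529 and 666 in high 1 to high 3 and 1168, 1435 and 1872 in low 1 to low 3. SOD2, the mitochondrial superoxide dismutase, was at 889, 797 and 1076 against 1584, 2346 and 3258. SLPI, an antiprotease of epithelial secretions, was at 903, 821 and 609 against 2358, 2590 and 3501, and INHBB, the inhibin and activin beta B subunit, at 893, 539 and 776 against 1380, 1944 and 1833. In all 6 genes every high prolific sow lay below every low prolific sow, which follows from choosing genes like SPP1. With low 2 and low 3 left out, the log2 fold change went from -1.79 to -0.92 in CLDN1 and from -1.14 to -0.63 in BCAS1. It went from -1.33 to -0.79 in SOD2, from -1.30 to -0.98 in CDH16, from -1.24 to -0.94 in INHBB and from -1.85 to -1.62 in SLPI. No integrin subunit was among the 6.

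**Figure D5:**
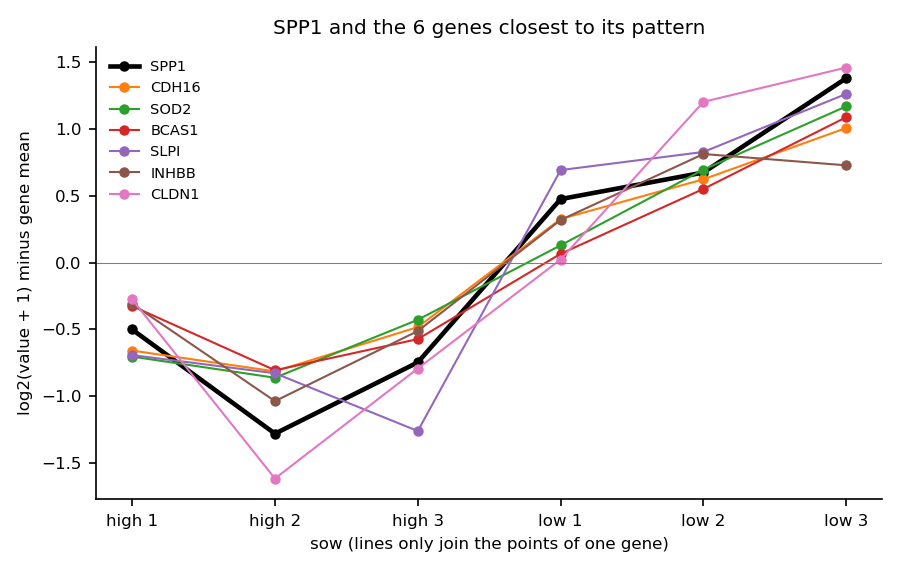
Log2(value + 1) minus the mean of the gene in each sow for SPP1 (thick black) and the 6 genes with the smallest root mean square distance to it (0.28 to 0.33 log2 units). Lines only join the values of a gene, and the high prolific sows of SPP1 lie between -1.28 and -0.50 and the low prolific sows between 0.47 and 1.38.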

How the data were processed

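Endometrial RNA of 6 sows was analysed from 1 deposited table of normalized read counts, a signal per gene and library whose values are not whole and whose columns do not share 1 total. Subread 1.6, featureCounts and edgeR were the tools of the authors, per the submitters' processing notes. The kind of normalization, genome build, annotation and strand setting were not given in the sources used here. Tested for whole reads, values under 20 fell within 0.1 of a multiple of the library's step in only 40.6% of cases in high 2 (100% in high 3), so no count test was used. Every listed gene reached 10 in at least 3 libraries, so that filter removed 0. Symbols came from a table of Ensembl identifiers (11977 of 14262 matched). Reads shared between overlapping genes, or antisense reads, may have been assigned to either gene.

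Groups were compared by limma (version 3.58.1, R 4.3.3) with a variance trend and robust moderation, two-sided, after adding a pseudocount of 1 and taking log2, which understates the change of low genes. Benjamini-Hochberg adjustment ran over all 14262 genes at a threshold of 0.05. The procedure was run on simulated data with independent errors for each gene. Here the sows differed in many genes at once, so that run does not show how the procedure behaves on these data. Nothing says how the sows were chosen or housed. Each p-value sets a group difference against the moderated spread between these sows, and whether it holds for other sows is unknown. The members, the 16 gene lists and the alternatives were chosen with earlier results of these data known. Named genes were the 10 members, 12 genes fixed by name, at most 3 further genes by p from each of 5 lists, and the 6 genes with a mean of at least 50 closest to SPP1. NPNT, PKD2, LTBP1, ADAM15, EMILIN1, CAV1 and FGB, and the parity pattern, were added after values were seen.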

Additional observations from a re-analysis of the deposited data

How the results depend on the processing

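SPP1 kept its direction in all 19 other settings tried and did not pass in any, with an adjusted p between 0.163 (without low 1) and 0.9999 (without high 2, with limma). Its groups do not overlap, so leaving out sows could not turn that direction. The filters, the moderation settings and the replicate block could not change its estimate, which stayed at -1.69. With the replicate number as a block 0 genes were called, and the adjusted p of SPP1 was 0.931 with limma. In that fit 6 wider-list genes, and 615 of all genes, had an unadjusted p under 0.05. Same-numbered sows deviated in opposite directions (correlations across genes of -0.378, -0.163 and -0.357) and the labels name no pairs. Leaving out single sows gave 0 to 4 called genes over the whole table (4 without low 1, 1 without low 2). The 14 wider-list genes at an unadjusted p under 0.05 became 3 (without low 2) to 25 (without low 1), 5 without high 2 and 8 without the variance trend. The count over all genes moved as well, from 1129 to 632 without low 2, 1872 without low 1 and 466 without high 2. Without the variance trend it was 1105. Rescaling moved the median of all genes from -0.0024 to at most 0.042 log2 units, so small differences are not resolved. The depth is unknown and no counting error can be given.

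Of the 49 gene-level log2 fold changes recomputed, 32 kept their direction in every alternative. Where the groups of a gene did not overlap, leaving out sows could not turn its direction. The ranges over single sows left out that crossed 0 were -0.34 to 0.32 for ITGB5, -1.004 to 0.17 for ITGB6, -0.068 to 0.12 for ITGA4, -0.17 to 0.13 for ITGA9, -0.20 to 0.17 for VTN, -0.42 to 0.054 for PTK2, -0.029 to 0.45 for PLAU, -0.34 to 0.055 for DMP1, -0.39 to 0.16 for SPARCL1, -0.18 to 0.15 for PKD2 and -0.11 to 0.46 for FGB. List medians ran from -0.045 to 0.069 for other integrin subunits, from -0.043 to 0.18 for processing genes and from -0.32 to 0.030 for genes flanking SPP1. Slopes on parity ran from -0.084 to 0.039 for ITGB8 and from -0.20 to 0.031 for ITGA8. With low 2 and low 3 left out, the direction turned for ITGAV (0.26), ITGB1 (0.037), ITGB5 (0.47), ITGA4 (-0.049), FN1 (0.22), ACP5 (0.40), PTK2 (0.023), ESR1 (-0.30), CPN1 (-0.070), DMP1 (0.095), SPARCL1 (0.31), PKD2 (0.25), FGB (-0.18), and the medians of other integrin subunits (-0.046) and of flanking genes (0.17). With parity as a covariate it turned for ITGB5 (0.13), SPARCL1 (0.0062), PKD2 (0.071) and FGB (-0.065), and with library weights for ITGB5 (0.12), VTN (0.025) and PKD2 (0.047). Equal column sums turned ITGA9 (0.012) and PKD2 (0.0070), and equal medians turned ITGA9 (0.0012). The cause was not tested.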

Other observations

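Lymphocyte markers, 9 measured of 12, summed to 5298 to 8000.9 in the high and 3191.2 to 5774.9 in the low prolific sows, ranges that overlapped. JCHAIN was a large part of that sum (5879 in high 1 and 3886 in low 1). Of the 9 markers 8 lay higher in high prolific sows, where 50.4% of all genes lay lower. At an unadjusted p under 0.05 with limma were 0 of the 9. The 2 measured red blood cell genes of 6 summed to 2522.7, 623.8 and 2346.3 in high 1 to high 3. In low 1 to low 3 they summed to 3749.2, 1690.6 and 7971.6. The groups overlapped, with low 2 below high 1 and high 3. The lowest and highest sows, high 2 and low 3, were also those of SPP1. The part of both marker lists in the results was not tested.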
